A study of Drosophila melanogaster with 8 samples.

Results

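The broad Bicoid domains are the 250 longest stretches of called Bicoid (Bcd) enrichment on the chromosome arms of wild-type Drosophila melanogaster embryos. They were chosen by the length of the wild-type peak alone: a deposited wild-type peak on 2L, 2R, 3L, 3R, 4 or X with a length of at least 5000 bp. They numbered 250 of the 2827 wild-type peaks on the arms (8.84%) and of the 3891 peaks in the whole wild-type list. The domains were 5001 to 13299 bp long with a median of 6027 bp, a range fixed at its lower end by the choice.

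Bcd binding was mapped by chromatin immunoprecipitation and sequencing (ChIP-seq) in zelda mutant and wild-type embryos aged 1 to 3 h after egg laying. There were 2 Bcd ChIP and 2 input libraries of zelda mutant embryos, and 2 Bcd ChIP and 2 input libraries of wild-type embryos; the ChIP libraries came from a rabbit antiserum against full-length Bcd, and the inputs are the matching chromatin without enrichment. The labels give the mutant only as zelda, with no allele and no statement of how the mutant embryos were obtained, and do not say whether replicates were separate embryo collections. For each genotype 1 peak list was deposited, so no value below has a spread between replicates, and the genotypes are compared without p-values.

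Bcd is a homeodomain transcription factor translated from maternal mRNA held at the anterior pole. The protein spreads as a gradient along the embryo and activates the genes that pattern the head and thorax. Zelda is a maternal zinc finger protein present in all nuclei of the early embryo, where it opens chromatin at enhancers and is needed to switch on many of the first zygotic genes. Developmental genes of the early embryo often carry several enhancers within a few kilobases of each other.

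The peak caller MACS gave each peak a tag count (sequenced ChIP fragments inside the peak), a summit (the base with the most overlapping tags), a fold enrichment over the local background and an empirical false discovery rate. Fold and score are the authors' values for each peak and are used to describe or rank peaks within their own list. The exception is the wild-type score, which is also multiplied by a ratio of tag numbers and set against the p cutoff. Without duplicate tags, 10060479 tags remained in the mutant ChIP and 39154546 in the wild-type ChIP, a ratio of 0.257, and the mutant control had 17035242 and the wild-type control 22487837. Depth and genotype therefore cannot be told apart in any count of mutant peaks: a shallower library passes a fixed p cutoff less often and over a shorter stretch. Intervals below are 95% intervals and cover counting error only, since sequenced tags are not independent molecules.

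The 250 domains made up 21.7% of the called length of wild-type arm peaks (1.63 Mb) and held 24.4% of the tags in those peaks. Arm 3R carried 62 of them, 2L 56, 2R 52, 3L 49, X 30 and chromosome 4 had 1. Their median tag density was 544 tags per kb (range 345 to 958), against 448 tags per kb in the 2577 shorter arm peaks. Their fold enrichment was more spread out than that of shorter peaks, with an interquartile range of 3.93 to 8.38 around a median of 5.43, against 4.46 to 6.66 around 5.33. The false discovery rate was at most 5% for 182 domains and above it for 68, and 66 domains had a score of at least 1000. The wild-type summit lay in the outer 50% of the domain, nearer an edge than the centre, in 125 of 250 domains (50%), against 366 of 2577 shorter peaks (14.2%). Length and tag number come from the same calls that chose the domains, so these values are a description.

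At the edge of the length rule, the 3 domains just inside were 5001, 5001 and 5003 bp long, all on 2L, with wild-type folds of 6.01, 4.46 and 7.06 and with 1, 0 and 1 mutant peaks. The 3 peaks just outside were 4984, 4983 and 4979 bp long, on 2L, X and 3L, with folds of 4.53, 7.70 and 4.53 and with 1, 3 and 0 mutant peaks.

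In the mutant, Bcd was called in 160 of the 250 broad domains, and in most of these it was called over a shorter stretch. A mutant peak overlapped a domain by at least 1 bp in 160 cases (64.0%, Wilson interval 57.9 to 69.7), against a background of 45.5% of all wild-type arm peaks and 43.7% (41.8 to 45.6) of the shorter ones. No mutant peak was found in 90 domains, exactly 1 in 108, 2 in 41, 3 in 10 and 4 in 1. At least 2 mutant peaks lay in 52 domains (20.8%, 16.2 to 26.3), against a background of 3.36% of all arm peaks and 43 shorter peaks (1.67%). A longer region offers more room for an overlap. Per 100 kb of called wild-type length, the domains held 13.7 mutant peaks (exact Poisson interval 11.98 to 15.6) and the shorter peaks held 19.9 (18.7 to 21.0).

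Both shares depended on the limit set for mutant peaks. With only mutant peaks of a false discovery rate of at most 5%, a mutant peak was found in 17.6% of domains and several in 3.60%. Joining mutant peaks less than 500 bp apart left several in 9.20%. The backgrounds above were counted without these limits, and their values under the limits were not computed, so the shares here have no background. Under the false discovery rate limit, the wild-type summit was inside a mutant peak in 16.4% of domains. That was 9.73 points above shorter peaks (5.52 to 14.9).

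The share of domains with a mutant peak was higher in the longer ones. It was 51.3% of the 119 domains of 5 to 6 kb, 67.7% of the 65 domains of 6 to 7 kb, 75% of the 32 domains of 7 to 8 kb, and 91.2% of the 34 domains of 8 kb or more. At least 2 mutant peaks were found in 16.0%, 16.9%, 18.8% and 47.1% of these 4 classes. The intervals of neighbouring classes overlapped, while those of the shortest class (42.4 to 60.1) and the longest (77.0 to 97.0) did not.

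The wild-type summit gives a comparison that depends less on room, since it is 1 base in a domain of any length. It lay inside a mutant peak in 136 of 250 domains (54.4%, 48.2 to 60.5), against a background of 42.8% of all arm peaks and 1075 of 2577 shorter peaks (41.7%, 39.8 to 43.6). The difference between the domains and the shorter peaks was 12.7 percentage points (6.20 to 19.0). It was 4.14 points (-3.88 to 11.9) when wild-type peaks of both kinds were limited to a false discovery rate of at most 5%, and 5.50 points (-2.13 to 12.9) among those whose deposited score, multiplied by the tag ratio of 0.257, stayed at or above 50, and both intervals include 0. With the length limit at 4000 bp it was 4.50 points (-0.351 to 9.39), which also includes 0. At 6000 and 8000 bp it was 24.7 and 37.0 points. In the lowest of 4 equal groups of domains by fold (2.73 to 3.91), the summit was inside a mutant peak in 38.7% of 62 domains, against 12.3% of the 285 shorter peaks in the same fold range. The shares were 49.2% and 35.04% in the second group, 72.6% and 53.9% in the third, and 57.1% and 55.6% in the highest (8.39 to 12.8).

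The pattern by fold depended on 47 domains that were much alike, grouped as sets A to H further on. Such sets were sought among the domains only, and all shorter peaks were kept, so the comparison is not like for like. Without the 47 domains the share was 17.1% of 41 domains in the lowest group, a difference of 4.79 points from shorter peaks (-4.79 to 19.4). It was 44.7% of 47 in the second, 72.6% of 62 in the third and 67.9% of 53 in the highest, differences of 9.64, 18.7 and 12.4 points. The interval of the difference left out 0 in the third group alone (6.14 to 28.7). Over all fold groups the difference without these 47 domains was 11.98 points (4.85 to 19.0). Tag density differed at equal fold too, with medians in the 4 groups of 499, 518, 568 and 613 tags per kb in the domains and of 382, 412, 491 and 638 in the shorter peaks. Its part in the result was not tested.

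**Figure D1:**
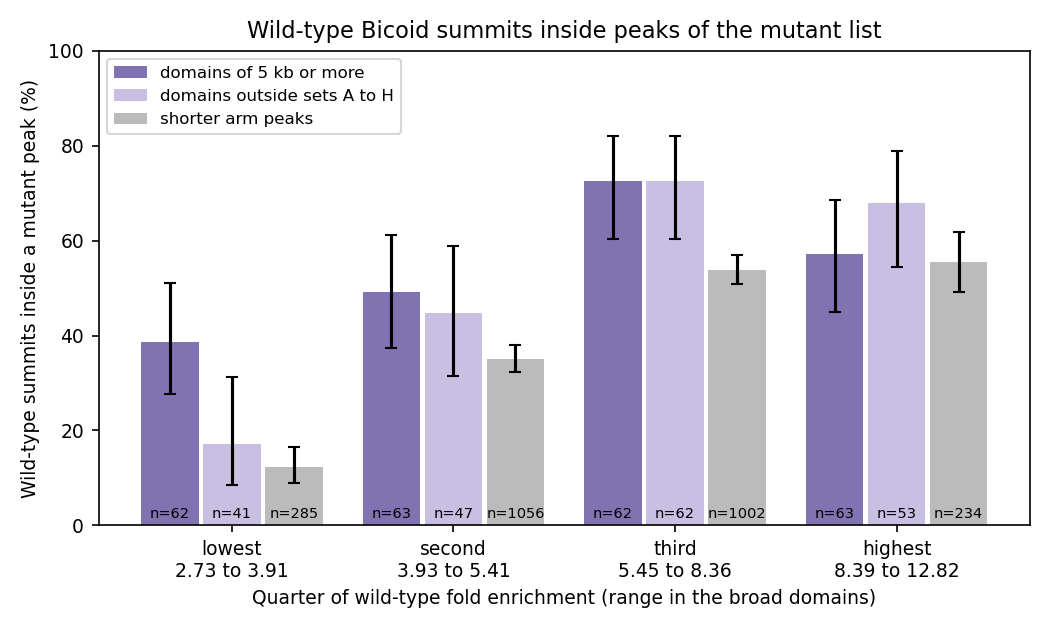
Share of wild-type summits (percent, from 0 to 100) inside a zelda mutant peak, for all broad domains, for the domains outside sets A to H and for shorter arm peaks, in 4 groups of wild-type fold enrichment set by the domains' quartiles. Bars are shares, error bars are Wilson 95% intervals and n is the number of peaks. The gap to the shorter peaks in the lowest group (38.7% and 12.3%) is mostly absent for domains outside the sets (17.1%). No such sets were sought among the shorter peaks, which are all kept.

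Domains that held more mutant peaks were stronger in wild type, and so were shorter peaks. The median wild-type fold was 8.21 in the 52 domains with at least 2 mutant peaks (7.18 to 8.94), 5.09 in the 108 with 1 (4.29 to 5.80) and 4.30 in the 90 with none (3.97 to 5.05). In shorter peaks these medians were 6.81, 5.88 and 4.90. Median tag density of the domains followed the same order, at 612, 548 and 518 tags per kb, as did their median length, at 6567, 6091 and 5769 bp. Of the 139 domains with a fold of at least 5, 103 (74.1%) held a mutant peak and 48 held several. Of the 111 domains below that fold, 57 (51.4%) held a mutant peak and 4 held several. The shares of shorter peaks on each side of this fold were not computed. From the lowest to the highest of the 4 fold groups, 14.04%, 36.9%, 56.0% and 57.3% of shorter peaks held a mutant peak. Several lay in 0%, 0.473%, 2.89% and 3.85% of them.

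**Figure D2:**
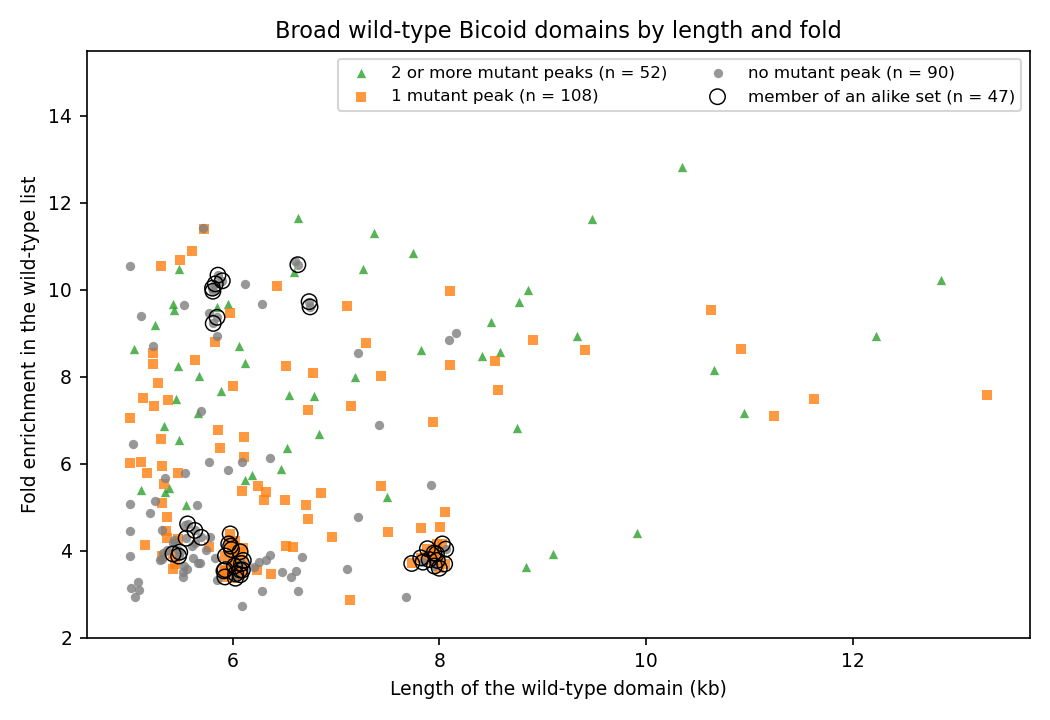
Length (kb) and fold enrichment of each of the 250 broad domains in the wild-type list, marked by how many mutant peaks overlap it; rings mark the 47 members of groups of domains with nearly the same length, summit offset, tag number and fold. Domains with several mutant peaks lie mostly above a fold of 5, and the ringed domains fall into tight clumps near 6 and 8 kb.

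The domains on X differed from those on the other arms in both their share with a mutant peak and their fold. A mutant peak was found in 13 of 30 X domains (43.3%, 27.4 to 60.8), against 147 of 220 domains on the other arms (66.8%, 60.4 to 72.7), a difference of -23.5 points (-40.5 to -4.86). Among shorter peaks the share on X was 44.8%, close to that of shorter peaks on all arms. At least 2 mutant peaks lay in 1 of the 30 X domains. The X domains also had lower wild-type folds, with a median of 3.85 against 5.91 on the other arms. Below a fold of 5, 10 of 27 X domains (37.0%) and 47 of 84 domains elsewhere (55.95%) held a mutant peak, a difference whose interval included 0 (-37.4 to 2.63), and at or above it 3 of 3 and 100 of 136 did. On the other arms the share was 62.5% for 2L, 75% for 2R, 71.4% for 3L and 61.3% for 3R, with overlapping intervals. The single domain on chromosome 4 (6359 bp, fold 3.91) held no mutant peak.

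The mutant peaks inside the domains were much shorter than the domains. The 160 domains with a mutant peak held 224 different mutant peaks, 11.98% of the 1870 mutant peaks on the arms, with a median length of 1753 bp. Together the mutant peaks covered 506 kb, or 31.0% of the domains' length, and 31.2% of the length of shorter peaks. The distribution behind these similar totals differed. Among regions with a mutant peak, at least 50% of the length was covered in 66 of 160 domains (41.3%, 33.9 to 49.0), against 938 of 1125 shorter peaks (83.4%, 81.1 to 85.4). Over all arm peaks with a mutant peak, the background of this share was 78.1%. When regions without a mutant peak were counted too, it was 35.5% of all arm peaks and 26.4% of all domains. The median covered share was 43.6% in domains with a mutant peak and 24.6% over all 250 domains (19.7 to 27.3), and was 0 over all domains with only mutant peaks of a score of at least 100. Less than 25% was covered in 37 of the 160 domains with a mutant peak (23.1%), against 3.50% of all arm peaks with one. At least 90% was covered in 8 of the 160 (5.0%), against 22.1% of all arm peaks with one. In domains with a mutant peak, the longest stretch without any had a median length of 2701 bp and reached 9559 bp.

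Broad mutant peaks were rare, and nearly all lay on a broad wild-type domain. Only 15 mutant arm peaks reached 5000 bp, the longest being 6746 bp, and 14 of these lay on 14 different domains, or 5.6% of the 250. The exception was on X (chrX:12825031-12830499, mutant fold 1.91) and overlapped no wild-type peak. Of all mutant arm peaks, 11.98% lay in a domain. A mutant peak of 5000 bp fits inside a wild-type peak only where that peak is at least as long. With the deeper wild-type library, the match between broad peaks therefore follows in part from length and depth.

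Mutant summits were spread over a wide range of distances from the wild-type summit. Of the 224 mutant summits in the domains, 97 (43.3%) were within 200 bp of the wild-type summit, 22 (9.82%) between 200 and 1000 bp, 65 (29.0%) between 1000 and 3000 bp and 40 (17.9%) farther away. They lay on the left of it in 108 cases and on the right in 116. Taking the nearest mutant summit in each domain, 97 of 160 (60.6%, 52.9 to 67.9) were within 200 bp, against a background of 79.8% of all arm peaks with a mutant peak and 82.5% (80.2 to 84.6) of the shorter ones. The median nearest distance was 105 bp in the domains (65 to 156) and 45 bp in the shorter peaks (39 to 48). The nearest summit was more than 2000 bp away in 22 domains (13.8%, 9.26 to 19.9) and in 14 shorter peaks (1.24%, 0.743 to 2.08). A shorter peak cannot hold as large a distance, so the upper end of the distances follows length.

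**Figure D3:**
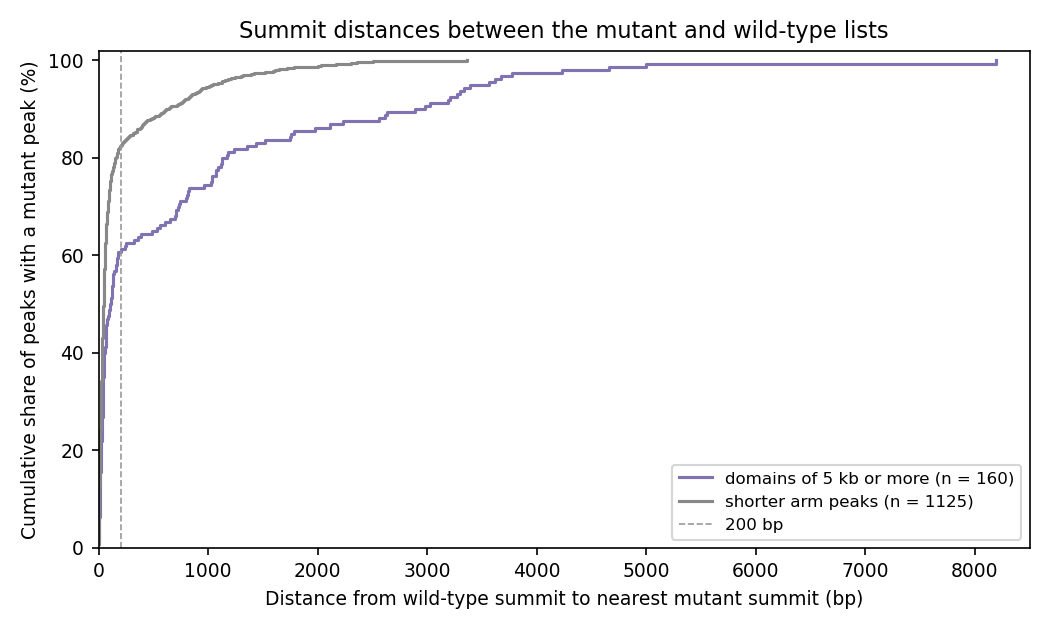
Cumulative share (percent) of wild-type peaks with a mutant peak, against the distance (bp) from the wild-type summit to the nearest zelda mutant summit, for 160 broad domains and 1125 shorter arm peaks; the dashed line is at 200 bp. The curve of the domains passes 200 bp at 60.6% and runs on to 8195 bp, and that of the shorter peaks passes it at 82.5%.

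Of the 52 domains with at least 2 mutant peaks, 37 (71.2%) had a mutant summit no farther than 200 bp from that of wild type. Among shorter peaks with at least 2, 37 of 43 (86.0%) did. The mutant peak of highest fold was the one nearest the wild-type summit in 35 of 52 domains (67.3%, 53.8 to 78.5). That share was about the same in shorter peaks, at 28 of 43 (65.1%), and over all arm peaks, at 63 of 95 (66.3%). Neighbouring mutant summits in the same domain were 1164 to 6811 bp apart, with a median of 2385 bp. In the 108 domains with exactly 1 mutant peak, its summit was within 200 bp of the wild-type summit in 60 (55.6%). It was more than 1000 bp away in 32 (29.6%). Among the 1082 shorter peaks with exactly 1, these shares were 82.3% and 5.45%.

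Each of the 10 longest domains held a mutant peak, 5 of them 1 peak, 4 of them 2 and 1 of them 3. The longest, chr3L:20387295-20400593 (13299 bp), had 7272 wild-type tags at a fold of 7.59 and a single mutant peak of 2945 bp and 499 tags, which covered 22.1% of it with a summit 1023 bp from the wild-type summit. In chr2L:3817437-3830292 (12856 bp, fold 10.2) there were 2 mutant peaks, with 498 tags at a summit 6 bp from the wild-type summit and 298 tags at 4270 bp. The 6708 bp on the left of these held no mutant peak.

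The domain with the most wild-type tags kept called mutant signal along nearly its whole length. It was chr2R:9447056-9459276 (12221 bp), with 11708 wild-type tags (exact Poisson interval 11497 to 11922), a density of 958 tags per kb and a fold of 8.94. It held 3 mutant peaks in a row, with 1301, 618 and 641 tags and mutant folds of 7.62, 5.64 and 7.09, which covered 93.2% of it. The nearest mutant summit was 2115 bp from the wild-type summit, although the wild-type summit lay inside the first of these peaks.

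The opposite pattern was seen in chr2L:3070571-3081197 (10627 bp, 6525 wild-type tags, fold 9.55). Its wild-type summit lay 1833 bp from the left end, and its single mutant peak of 785 bp and 91 tags had a summit 8195 bp away, near the other end. Only 7.39% of the domain was covered. At the depth ratio of the libraries, its wild-type tags would scale to 1677 mutant tags over the whole domain. That number and the 91 tags cover unlike lengths, 10627 and 785 bp, and mutant tags outside the called peak were not counted. The 2 numbers therefore do not measure a loss. The 126 tags of the mutant peak in chr3L:19548830-19560451 (11622 bp, fold 7.49) covered 9.03% of it, but there the summits were 109 bp apart. The other domains of low coverage were chr3R:27898744-27905044 (14.3%), chr3L:10838611-10846433 (14.8%) and chr2R:2467808-2475240 (14.9%), each with 1 mutant peak of 106 to 142 tags.

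**Figure D4:**
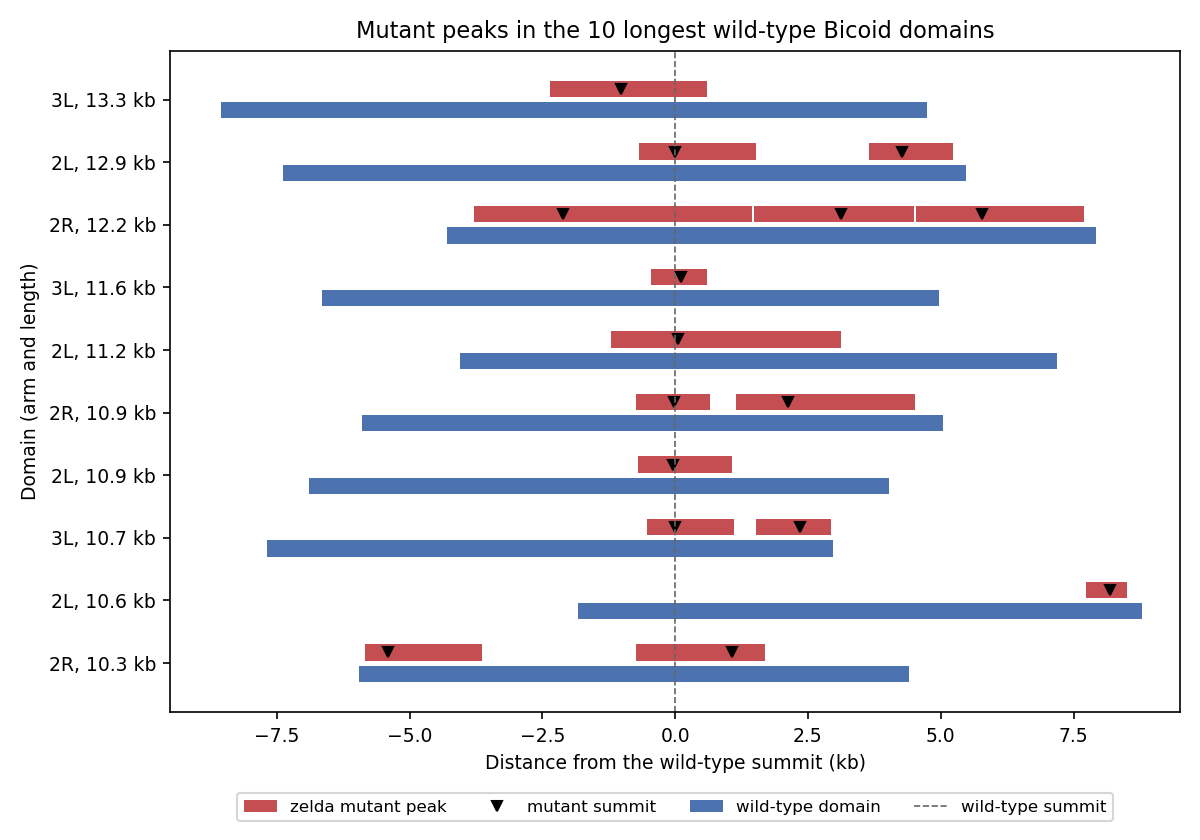
Zelda mutant peaks (upper bars, triangles at their summits) and wild-type domains (lower bars) for the 10 longest broad domains, placed by distance (kb) from the wild-type summit at the dashed line. Mutant peaks fill most of the 12.2 kb domain on 2R, while in the 10.6 kb domain on 2L the only mutant summit is 8195 bp from the wild-type summit.

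The domain with the most mutant peaks was chr3R:17462567-17471332 (8766 bp, 5372 wild-type tags, fold 9.72), with 4. These had 160, 131, 171 and 147 tags, were 1115 to 1305 bp long, and had summits 5898, 3901, 2490 and 131 bp from the wild-type summit. The next in order, each with 3 mutant peaks, were chr2L:13224274-13230862 (76.4% covered), chr2R:9447056-9459276, chr3R:21456428-21465759 (46.8%) and chr2L:14443363-14448410 (82.2%). In chr2L:13224274-13230862 the mutant peak of highest fold (9.40, 317 tags) was 2138 bp from the wild-type summit, and a weaker one (7.05, 403 tags) was 33 bp from it.

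The 5 largest covered shares, 4 of them in domains with a fold under 5, were those of chr3L:19898487-19903925 (97.8%, wild-type fold 3.70), chr2R:10776945-10783902 (97.0%, 4.32), chr2L:21530857-21539955 (93.9%, 3.93), chr2R:9447056-9459276 (93.2%, 8.94) and chr2L:21421391-21431302 (92.8%, 4.41). The pair near the end of 2L each held 2 long mutant peaks: 1151 and 971 tags in chr2L:21530857-21539955, and 1262 and 976 tags in chr2L:21421391-21431302. Their mutant folds were low, at 2.80 to 3.75, although the mutant tag densities of 214 to 272 tags per kb were above the median of 146 for domains with a mutant peak.

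Some of the strongest Bcd peaks of the mutant list lay in broad domains. Of all 1870 mutant arm peaks, 224 (11.98%) lay in a domain. Of the 50 mutant arm peaks of highest mutant fold, 12 did, among them the first and second of all. These were picked after their values were seen. The first was in chr3R:4522090-4527811, with 1145 mutant tags at a mutant fold of 15.0, 15 bp from the wild-type summit, and covered 74.7% of a domain with 4792 wild-type tags at a wild-type fold of 11.4. The second was in chr2R:15545284-15552389, with 899 mutant tags at a mutant fold of 13.4 and 45 bp from the wild-type summit, where the domain had 5153 wild-type tags at a wild-type fold of 9.63.

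Scaled to library depth, the called mutant peaks were about as dense as the domains around them. The median density was 14.5 RPKM (tags per kb divided by the filtered ChIP tags in units of 1e6; 14.3 to 15.2) in the mutant peaks and 14.6 RPKM (13.99 to 15.2) in the 160 wild-type domains that held them. The median ratio within a domain was 1.05 (1.02 to 1.09) and lay above 1 in 97 of 160; in shorter peaks it was 1.147 and above 1 in 870 of 1125. The mutant value covers only the called mutant stretch and the wild-type value the whole domain, so the ratio does not compare the same bases. Mutant stretches had to pass the p cutoff to be counted, and the 90 domains without a mutant peak are left out. The ratio therefore does not measure how much Bcd density the mutant kept. With stricter limits on mutant peaks it was higher, at 1.08 for a score of at least 100 and 1.21 for a false discovery rate of at most 5%. The ratio also turned on the scaling: without scaling the median densities were 146 tags per kb in the mutant peaks and 573 in the same 160 domains, with a median ratio of 0.271, and with MACS-like scaling to the smaller of ChIP and control the ratio was 0.605.

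The 90 domains without a mutant peak included strong ones. The 5 of highest wild-type fold were chr3L:5798840-5804548 (5709 bp, 3331 tags, fold 11.4), chr2L:6371384-6377990 (6607 bp, 4078 tags, fold 10.7), chr2L:15445828-15452457 (6630 bp, 3475 tags, fold 10.6), chr2L:11074071-11079074 (5004 bp, 2640 tags, fold 10.6) and chr2L:1219896-1225752 (5857 bp, 3122 tags, fold 10.3). Their false discovery rates were 0 to 0.320%. The nearest mutant peak was 24.98 to 222 kb away from them. In the highest fold group, 23 of 63 domains had no mutant peak, and the share with one (63.5%, 51.1 to 74.3) was below that of the third group (83.9%, 72.8 to 91.0). Among shorter peaks a mutant peak was found in 57.3% of 234 in the highest group (50.9 to 63.4). In the third group it was 56.0% of 1002 (52.9 to 59.0).

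The depth behind the 90 domains without a mutant peak can be set beside what the mutant list called. Scaled by the ratio of the libraries, their wild-type tags correspond to at least 443 mutant tags per domain, with a median of 806. Called mutant arm peaks held as few as 87 tags and a median of 198, though over shorter stretches and above their own local background. When the wild-type score was multiplied by the same ratio, 65 of the 90 (and 197 of all 250) still reached 50, the score at the p cutoff. The ratio is only a rough factor for the score. MACS scaled the larger dataset towards the smaller, here the wild-type ChIP towards its control of 22487837 tags, while the ratio uses all ChIP tags. The difference of 5.50 points given above rests on the same factor, and no other factor was tried. From the 90 domains, the nearest mutant peak was a median of 35.1 kb away, and within 5 kb for 6. The tags of the mutant library in domains with no called peak were not analysed here.

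Some broad domains were much alike in length, summit place, tags and fold. By a rule chosen after the values were seen, at least 3 domains formed a set when they could be linked by lengths within 3%, summit offsets within 150 bp, tag numbers within 5% and folds within 10%. This gave 8 sets, named here A to H, with 47 domains (18.8%) on 2 to 5 arms each. With the tolerances at 0.5 times these values, 10 domains remained in sets. No chance expectation was computed for such sets. Whether their members carry the same sequence was not tested, since no genome of this build was used here.

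The likeness of the members in wild type is what the rule asked for. What the mutant list held was even within some sets and uneven within others. Set A had 9 domains of 5915 to 6093 bp with 3037 to 3199 tags and folds of 3.37 to 3.71; 8 of them held 1 mutant peak each, with summits 1102 to 1325 bp from the domain start and lengths of 1494 to 2061 bp in 7 of them, while the other was 3718 bp long with 538 tags. Set C had 8 domains of 5926 to 6102 bp and folds of 3.57 to 4.39, all with a mutant peak. In the 7 of them with a single mutant peak, its summit lay 4638 to 4735 bp from the domain start and it held 144 to 226 tags, while the other member held 3 mutant peaks that covered 84.5% of it. Set D had 7 domains of 5804 to 5899 bp with 3033 to 3253 tags and folds of 9.23 to 10.3, and none held a mutant peak. Set G, with 3 domains of 6630 to 6748 bp and folds of 9.61 to 10.6, held none either, nor did the 3 domains of set H.

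Set E had 5 domains of 7901 to 8051 bp with folds of 3.60 to 4.16, each holding 1 mutant peak of 4982 to 6073 bp and 694 to 881 tags. In 4 of these 5 the mutant peak reached 5000 bp, so set E supplied 4 of the 14 domains with a broad mutant peak. Their mutant summits were spread from 2174 to 5868 bp from the domain start, and in 4 of the 5 the nearest mutant summit was more than 2000 bp from the wild-type summit. Set B had 8 domains of 7732 to 8061 bp, 5 with a mutant peak whose summits lay 3007 to 5235 bp from the domain start, and set F had 4, 1 with a mutant peak.

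**Figure D5:**
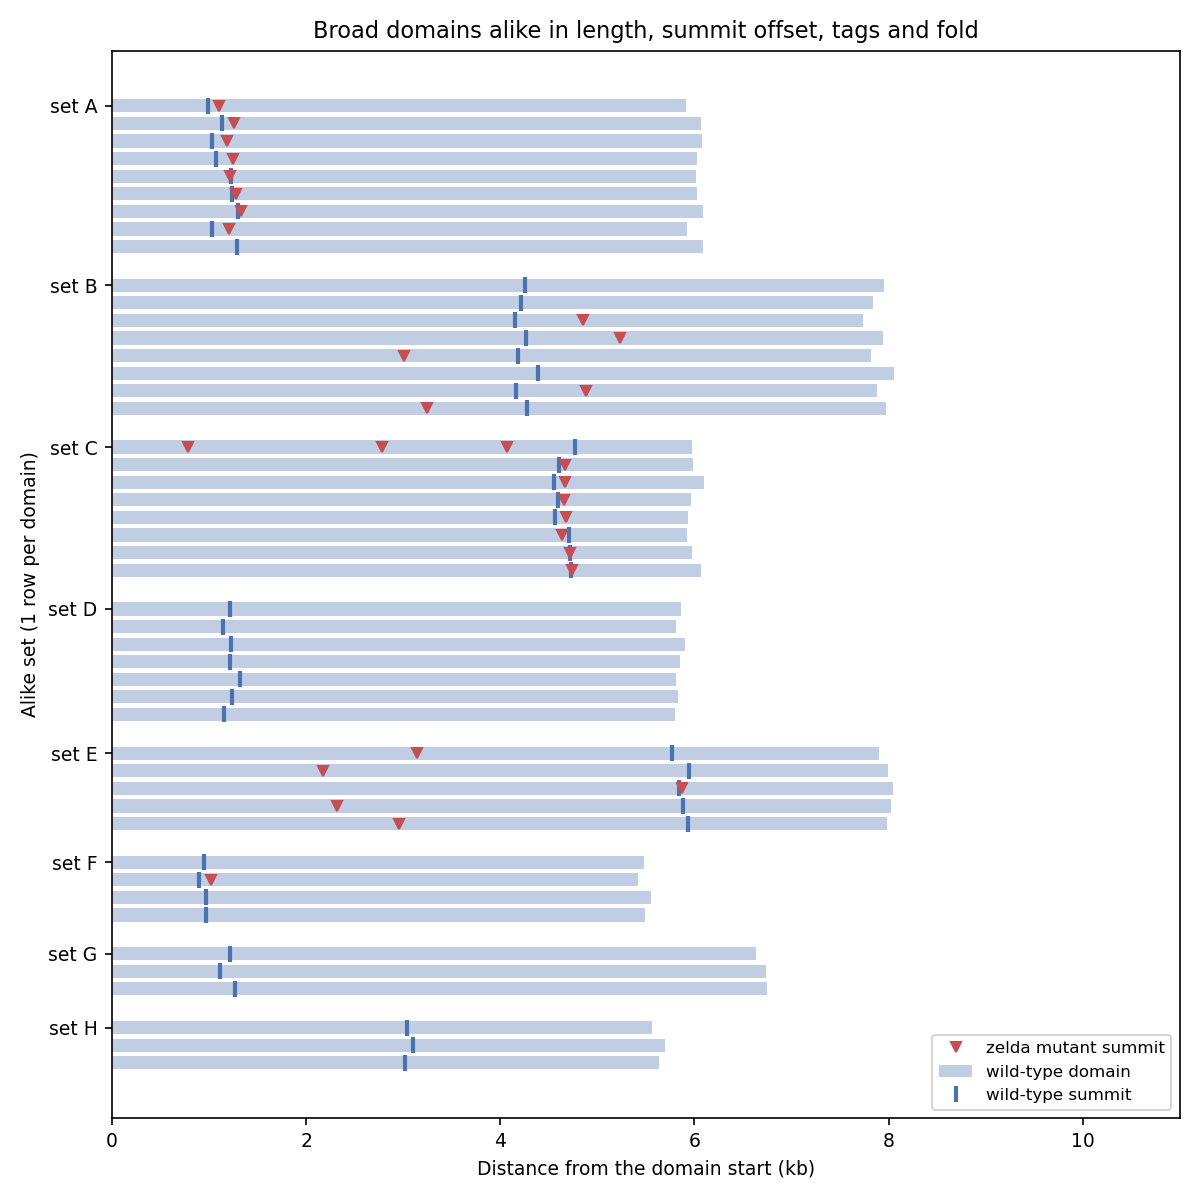
The 47 broad domains of sets A to H, 1 row each, drawn from the domain start (kb), with the zelda mutant summits (triangles) and the wild-type summit (vertical marks). Mutant summits lie 1102 to 1325 bp from the start in set A but spread from 3007 to 5235 bp in set B and from 2174 to 5868 bp in set E, and sets D, G and H hold none.

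Without the 47 domains of these sets, the main shares stayed close to those of all domains. A mutant peak was found in 133 of 203 domains (65.5%, 58.7 to 71.7), at least 2 in 51 (25.1%), and the wild-type summit was inside a mutant peak in 53.7%. The median covered share was 25.3%, and 80 of 133 had a mutant summit within 200 bp (60.2%). Inside the sets, 27 of 47 domains (57.4%, 43.3 to 70.5) held a mutant peak and 1 held several. The values by fold moved more. Of the 23 domains of highest fold without a mutant peak, 10 belonged to sets D and G, and outside the sets the share with a mutant peak in the highest group was 75.5% (62.4 to 85.1). In the lowest fold group it was 45.2% over all domains and 26.8% (15.7 to 41.9) outside the sets. The contrast with shorter peaks of low fold (14.04%, 10.5 to 18.5) was thus smaller outside the sets. No sets were sought among those shorter peaks.

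Broad domains stood about as close to other wild-type peaks as shorter peaks did. The nearest other wild-type peak was a median of 7.28 kb away (5.14 to 10.3), against 5.30 kb (4.73 to 5.83) for shorter peaks, and it was within 1 kb for 22.8% of domains and 23.0% of shorter peaks. Other broad domains were far, at a median of 145 kb (117 to 168). Only 26 domains lay within 10 kb of another, in 13 pairs. In 10 of these pairs both domains held a mutant peak. Of all 250 domains 64.0% held one, and no expected number of such pairs was computed. The pair on 2R spanning 20.9 kb (chr2R:3936450-3957383) held the most mutant peaks, 5, and the pair on X (chrX:21589192-21602065) held none.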

How the data were processed

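Per the file headers and the submitters' processing notes, the authors aligned reads with Bowtie2 (version not given) to the build dm3 and called peaks with MACS 1.4.2. Per the file headers, the p cutoff was 1e-05, the tag size 50 bp, the band width 300 bp and the fragment size 200 bp, with 1 tag kept per position and the larger dataset scaled towards the smaller. The sources used here do not say how the 2 replicates of a genotype entered the 1 deposited list. The deposited tag count is whole ChIP tags per peak. The deposited score is −10 times the log10 of the p-value, the deposited fold enrichment is a ratio to the local background, and the deposited false discovery rate is in percent.

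Here, positions are 1-based on dm3, an overlap needed at least 1 bp, and summits within 200 bp were counted as near. Shares have Wilson and medians binomial order-statistic 95% intervals; the interval of a difference of shares combines the Wilson intervals of the shares, and tag counts have exact Poisson intervals. RPKM is tags per kb per 1e6 filtered ChIP tags.

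The members and lists were chosen with earlier results of these data known. Regions are named by a rule: the 10 longest, the 5 of highest fold without a mutant peak, the 5 with most mutant peaks, the 3 on each side of 5000 bp, and the 5 largest and 5 smallest covered shares among domains with a mutant peak. Other regions named were chosen after their values were seen. Gene lists and motifs were not run, because no gene annotation or genome of dm3 was used here. Alternatives covered the length limit, score and false discovery rate limits, overlap rules and scaling. The code for overlaps and sets was tested on simulated data. Calculations used Python 3.11.15, numpy 2.4.6, scipy 1.17.1, pandas 2.3.3, networkx 3.6.1 and matplotlib 3.10.9.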

Additional observations from a re-analysis of the deposited data

How the results depend on the processing

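Of 138 values recomputed under an alternative, 86 moved by less than their interval or, for counts, by less than 1.5 times, and 52 moved more. Only the difference from shorter peaks could change sign, and it did not. The stricter overlap rules (at least 200 bp, or at least 50% of the mutant peak inside) left nearly every value unchanged and count among the 86. No paired analysis was possible because each genotype has 1 deposited list that carries no replicate number; for the same reason no replicate could be left out. With a length limit of 4000 bp there were 481 domains, of which 54.7% held a mutant peak, 14.8% held several and 46.6% had the summit inside one. Their median density was 13.4 RPKM and the nearest other domain 70.8 kb away. The difference from shorter peaks was 4.50 points (-0.351 to 9.39), an interval that includes 0. At 6000 bp these were 131 domains, 75.6% with a mutant peak, 66.4% with the summit inside, a difference of 24.7 points and 285 kb. At 8000 bp they were 34 domains, 91.2%, several in 47.1%, 79.4% with the summit inside, a difference of 37.0 points, 34.2% covered, 16.5 mutant peaks per 100 kb, 15.8 RPKM, a density ratio of 0.913 and 1176 kb. With mutant peaks of a false discovery rate of at most 5%, 17.6% of domains held a mutant peak, 3.60% several and 16.4% had the summit inside; the covered median was 0, with 3.31 peaks per 100 kb, a median distance of 43.5 bp, 70.5% within 200 bp, 20.5 RPKM and a ratio of 1.21. With mutant scores of at least 100 the shares were 46.8%, 12% and 41.6%, the covered median 0, 9.31 peaks per 100 kb and 15.4 RPKM. Joining mutant peaks within 500 bp left several in 9.20%. Within 100 bp, 49.4% of the matched domains had a mutant summit. The difference from shorter peaks was 26.4 points in the lowest fold group and 1.97 in the highest. Unscaled, the mutant and wild-type densities were 146 and 544 tags per kb with a ratio of 0.271 (wild type over all 250 domains, mutant over the 160 with a mutant peak); scaled by the smaller of ChIP and control, the wild-type density was 24.2 and the ratio 0.605. The density ratio thus fell on the other side of 1 under these scalings and at 8000 bp. With wild-type peaks of a false discovery rate of at most 5%, the density was 14.5 RPKM, the difference 4.14 points and the nearest domain 179 kb away. Chosen after seeing the data were the values above for the nearest other domain, for peaks per 100 kb, for the share within 200 bp under a mutant limit, and for the difference from shorter peaks except by fold group. So were 3 more: domains whose score times the tag ratio stayed at 50 or above gave a difference of 5.50 points, the lowest fold group without the sets gave 4.79, and the tolerances of the sets at 0.5 times left 10 domains in them. The cause of these changes was not tested beyond the construction of each alternative.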

Other observations

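Outside the chromosome arms, 28 further wild-type peaks reached 5000 bp, 22 on the heterochromatic scaffolds and 6 on the unplaced sequence U. Of these, 8 overlapped a mutant peak, 5 on the scaffolds and 3 on U. Their median wild-type fold was 3.81 and their highest 9.13, against 5.43 and 12.8 for the domains on the arms. They are not among the 250 domains, which were chosen on the arms alone.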
